A study of Mus musculus with 6 samples.

Results

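The unfolded protein response (UPR) and its ATF4 branch are followed here through 42 listed mouse genes, compared between 4T1 cells labelled 4T1-MMP3lo and 4T1-SC. The genes were listed by name: 5 sensors and transcription factors, 6 stress outputs of ATF4, 12 amino acid genes, 14 chaperones and folding factors of the endoplasmic reticulum (ER), and 5 genes of ER-associated degradation. A gene's value is that of the brightest of its probes with a detection p under 0.05 on at least 3 of 6 arrays, and 34 of the 42 genes were measured in this way, out of 9348 genes measured in all. Of these 34, 31 were detected on all 6 arrays.

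The study knocked down Mmp3, which encodes stromelysin, a secreted protease that degrades extracellular matrix, to ask what it does in tumor cells. Total RNA was profiled on mouse bead arrays from 3 cultures of 4T1-MMP3lo and 3 of 4T1-SC. 4T1 is a mammary carcinoma line of BALB/c origin. Both populations were stably transfected, 4T1-MMP3lo with a short hairpin RNA against Mmp3 and 4T1-SC with a scrambled hairpin, were selected with puromycin and grew in RPMI with fetal bovine serum. The sample titles call the groups Cl1 and NC without saying whether Cl1 is 1 clone. They also end in a date, and each of the 3 dates, numbered here 1 to 3 in calendar order as replicates 1 to 3, is shared by 1 array of either group. What happened on these dates is not given, so they are called label dates.

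The UPR is the set of signals by which a cell matches the folding capacity of its ER to the load of secreted and membrane proteins. Misfolded protein in the ER activates the sensors IRE1 (Ern1), PERK (Eif2ak3) and ATF6. IRE1 splices the Xbp1 mRNA, and XBP1 and ATF6 then induce chaperones and degradation factors. PERK, like other kinases that respond to lack of amino acids or heme, phosphorylates eIF2α, which lowers general translation but favors translation of Atf4. ATF4 in turn induces genes for amino acid synthesis, amino acid transport and tRNA charging, together with stress regulators such as CHOP (Ddit3).

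The 2 arms differ in the promoter elements by which they are known. The ER stress response element (ERSE) is bound by ATF6 and XBP1 with the factor NF-Y, and the C/EBP-ATF response element (CARE) by ATF4 with a C/EBP partner. Both strands of the RefSeq promoter windows of build GRCm38.p6, 250 bases before to 50 bases after each start site, were searched for the letters of ERSE (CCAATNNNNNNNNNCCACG), ERSE-II (ATTGGNCCACG), CARE (TGATGNAA) and the XBP1 element UPRE (TGACGTGG). Windows were held for 36 of the 42 genes. Psat1 and Slc7a1 have 2 windows each, and a gene was counted once if any of its windows held a match. ERSE or ERSE-II occurred for 8 of 12 chaperone genes and 2 of 4 degradation genes with a window. Neither occurred for an amino acid gene, ATF4 output or sensor, while ERSE occurred in 0.119% and ERSE-II in 0.0365% of all 32851 windows. CARE occurred for 3 of 10 amino acid genes (Asns, Aars, Gars), 2 of 6 ATF4 outputs (Trib3, Chac1) and 1 degradation gene (Herpud1), against 3.97% of all windows. UPRE, in 0.676% of all windows, was found for none of the 36 genes. ERSE-II carries the inverted CCAAT letters of ERSE, and no member window held both. These are matches of letters and were not shown to be bound in these cells.

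The promoters shown are examples of windows that hold a match. Of their genes, Asns and Trib3 were called in the comparison of label dates with all 6 arrays, and Mthfd2, Shmt2, Psat1 and Pdia4, also called there, hold no match. Each is given with the match in capitals, read 5′ to 3′ on the gene's strand up to the base before the start site. Asns, at chr6:7693210-7693459 (minus strand), has its match starting 23 bases before the start site.
Asns: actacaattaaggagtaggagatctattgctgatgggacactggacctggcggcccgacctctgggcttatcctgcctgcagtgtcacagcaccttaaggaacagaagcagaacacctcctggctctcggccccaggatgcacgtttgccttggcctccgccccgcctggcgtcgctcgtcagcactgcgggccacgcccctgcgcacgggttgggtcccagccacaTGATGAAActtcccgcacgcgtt
Chac1, at chr2:119350992-119351241 (plus strand), and Aars, at chr8:111033592-111033841 (plus strand), hold the CARE letters on the opposite strand, starting 193 bases before the start site of Chac1 and 112 bases before that of Aars, which has another match after its start site. The Aars window lies within the span of the gene, chr8:111027778-111055569, so that its start site is an internal one.
Chac1: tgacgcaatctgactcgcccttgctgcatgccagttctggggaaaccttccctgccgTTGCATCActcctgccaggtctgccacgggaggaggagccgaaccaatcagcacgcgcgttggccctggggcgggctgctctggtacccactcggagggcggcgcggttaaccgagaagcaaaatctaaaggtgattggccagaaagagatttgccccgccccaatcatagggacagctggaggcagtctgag
Aars: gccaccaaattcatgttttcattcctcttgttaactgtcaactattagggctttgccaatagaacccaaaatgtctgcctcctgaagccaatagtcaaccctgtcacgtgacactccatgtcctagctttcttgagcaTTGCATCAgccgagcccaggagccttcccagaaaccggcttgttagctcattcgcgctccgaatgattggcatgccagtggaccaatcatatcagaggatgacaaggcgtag
In Trib3 the match lies just after the start site, and 30 bases around it are shown from chr2:152344028-152344057 (minus strand).
Trib3: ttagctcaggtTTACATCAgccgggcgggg
Hsp90b1, at chr10:86705445-86705694 (minus strand), has 2 ERSE matches, and Creld2, at chr15:88819396-88819645 (plus strand), has 1.
Hsp90b1: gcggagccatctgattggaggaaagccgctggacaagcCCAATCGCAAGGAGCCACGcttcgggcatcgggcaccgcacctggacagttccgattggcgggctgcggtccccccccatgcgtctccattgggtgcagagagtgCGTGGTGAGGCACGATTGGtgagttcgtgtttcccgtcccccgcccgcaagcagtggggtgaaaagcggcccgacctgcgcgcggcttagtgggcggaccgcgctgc
Creld2: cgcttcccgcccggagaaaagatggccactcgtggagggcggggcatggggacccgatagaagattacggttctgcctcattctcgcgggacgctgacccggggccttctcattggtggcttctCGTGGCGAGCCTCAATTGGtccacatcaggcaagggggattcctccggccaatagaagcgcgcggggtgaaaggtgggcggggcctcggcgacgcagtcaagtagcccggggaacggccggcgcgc
Herpud1, at chr8:94386179-94386428 (plus strand), holds both kinds, CARE 112 bases and ERSE-II 52 bases before the start site.
Herpud1: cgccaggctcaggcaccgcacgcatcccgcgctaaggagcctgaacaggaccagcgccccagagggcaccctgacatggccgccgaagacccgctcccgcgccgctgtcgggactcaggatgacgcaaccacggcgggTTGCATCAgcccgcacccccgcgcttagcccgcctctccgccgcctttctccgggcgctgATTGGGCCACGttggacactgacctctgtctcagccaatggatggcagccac

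Values are log2 of the background-corrected and quantile-normalized probe intensity, so that a difference of 1 is a doubling, understated for dim probes by the offset added before the logarithm, and p-values were adjusted by Benjamini-Hochberg over all 9348 genes. Mmp3, the gene targeted by the hairpin, showed no reduction on average under the 4T1-MMP3lo label. Its log2 values on dates 1, 2 and 3 were 10.64, 13.40 and 13.33 in 4T1-MMP3lo, against 11.52, 12.98 and 13.04 in 4T1-SC. It was thus lower in 4T1-MMP3lo on date 1 and higher on dates 2 and 3. The difference was -0.06 (SE 0.74, adjusted p = 0.99 by limma), and the gene's 3 probes gave -0.06 to 0.09. Within dates 1, 2 and 3 it was -0.88, 0.42 and 0.29. Without the 4T1-MMP3lo array of date 1 the difference was 0.85. That fit kept the 4T1-SC array of date 1 and held no date term, so that it mixes group with date. The group names used here are thus labels only. Between 36.93% and 38.75% of probes were detected per array. Of the epithelial markers, 5 of 6 were measured and Epcam was detected on no array, while 1 of 6 leukocyte markers (Cd3e), none of 5 fibroblast markers and 1 of 4 endothelial markers (Kdr) were measured, Cd3e and Kdr near the detection limit. Lower RNA per cell and fewer cells with the RNA cannot be told apart in such cultures.

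Between arrays labelled 4T1-MMP3lo and 4T1-SC, no member of the list passed an adjusted p of 0.05. Over all genes the share called was 0.599% higher and 0.492% lower in 4T1-MMP3lo, so that 0 of 34 lies near the background. At an unadjusted p under 0.05, 5 of the 34 passed by limma, against 12.2% of all genes, and 2 by the methods' t-test, against 11.3%. Of the 34 differences 23 were positive, with a median of 0.14 against 0.02 over all genes. The 3 arrays of 4T1-MMP3lo all lay above the 3 of 4T1-SC for Ppp1r15a, Sdf2l1 and Creld2, where 9.62% of all genes did so, and all below for Edem1, where 8.07% did. The plot of group differences shows the ATF4 outputs and most amino acid genes right of 0 with wide errors, and the chaperones on both sides. These errors come from a fit without the label date. With the date as a block the SE of Asns was 0.18 instead of 0.42, while that of Ppp1r15a stayed at 0.28.

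**Figure D1:**
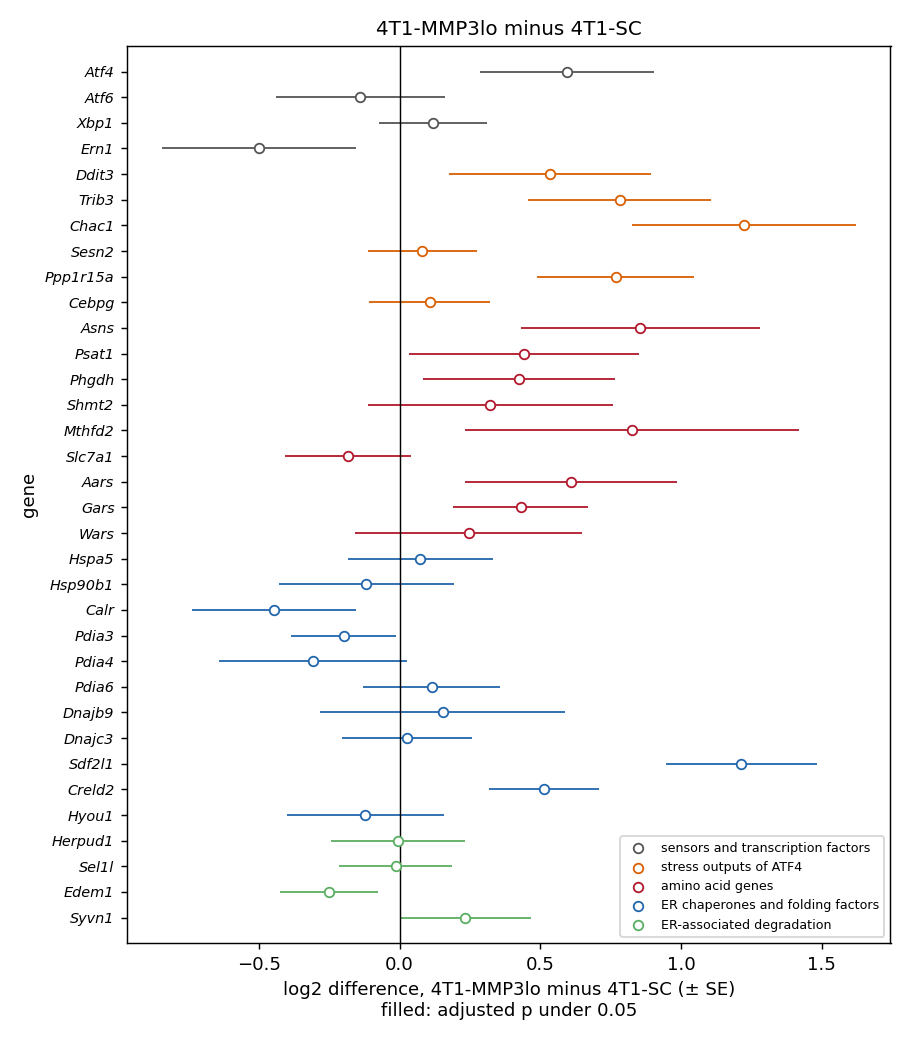
Log2 difference of 4T1-MMP3lo minus 4T1-SC (x axis) for the 34 measured genes (y axis), colored by role, with bars of ± 1 SE from limma. No point is filled, since none reached an adjusted p under 0.05, and Chac1 (1.22) and Sdf2l1 (1.21) lie farthest to the right.

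Among the ATF4 outputs all 6 differences were positive, with a median of 0.65. Chac1, which encodes an enzyme that degrades glutathione, had log2 values of 10.21, 9.66 and 9.90 on dates 1, 2 and 3 in 4T1-MMP3lo, against 9.70, 8.17 and 8.24 in 4T1-SC. Both later 4T1-SC arrays lay well below the first, and 4T1-MMP3lo on date 2 lay just below 4T1-SC on date 1, so that the groups overlapped. The difference was 1.22 (SE 0.40, adjusted p = 0.251 by limma). Trib3, a pseudokinase that restrains ATF4, had 9.59, 8.91 and 8.90 in 4T1-MMP3lo, against 9.01, 7.92 and 8.12 in 4T1-SC, a difference of 0.78 (SE 0.32, adjusted p = 0.386). Within each date 4T1-MMP3lo was the higher of the pair for both genes, by 0.52, 1.49 and 1.66 for Chac1 and 0.58, 0.99 and 0.78 for Trib3. Ppp1r15a (GADD34), the phosphatase subunit that reverses eIF2α phosphorylation, had 7.13, 7.87 and 7.80 in 4T1-MMP3lo, against 7.08, 6.38 and 7.03 in 4T1-SC. Its groups did not overlap, but on date 1 they were only 0.05 apart, and the difference of 0.77 (SE 0.28) had an adjusted p of 0.315. Ddit3, the pro-apoptotic factor CHOP, had 6.94, 7.67 and 7.31 in 4T1-MMP3lo, against 6.05, 6.79 and 7.48 in 4T1-SC, with 4T1-MMP3lo higher on dates 1 and 2 and lower on date 3. Its difference was 0.54 (SE 0.36), and 2 probes gave 0.07 and 0.54. Sesn2, a stress-induced inhibitor of mTORC1 signaling, and Cebpg, a C/EBP partner of ATF4, differed by 0.08 and 0.11.

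Atf4 itself had 11.06, 10.42 and 10.59 in 4T1-MMP3lo, against 10.75, 9.80 and 9.74 in 4T1-SC, higher in 4T1-MMP3lo within each date, with a difference of 0.60 (SE 0.31, adjusted p = 0.508 by limma). A second Atf4 probe gave 0.14. The mRNA level of Atf4 does not measure its translation, through which eIF2α phosphorylation acts. Ern1, the IRE1 kinase and nuclease, had 6.14, 6.55 and 6.58 in 4T1-MMP3lo, against 6.15, 7.57 and 7.04 in 4T1-SC, a difference of -0.50 (SE 0.35), and the 2 arrays of date 1 were alike. Xbp1 differed by 0.12 (SE 0.19), and its probe cannot tell spliced from unspliced mRNA here. Atf6 was close to the detection limit, with 4.78, 5.17 and 4.80 in 4T1-MMP3lo, against 5.74, 4.65 and 4.78 in 4T1-SC, and was detected on 5 of 6 arrays.

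Of the 9 amino acid genes measured, 8 had positive differences, with a median of 0.43, and in none did the groups stand apart. Asns, which makes asparagine from aspartate, had 12.07, 11.08 and 11.06 in 4T1-MMP3lo, against 11.45, 10.16 and 10.03 in 4T1-SC, a difference of 0.86 (SE 0.42, adjusted p = 0.478 by limma). On each date 4T1-MMP3lo was the higher, by 0.62, 0.92 and 1.03, yet 4T1-SC on date 1 lay above both later 4T1-MMP3lo arrays. Mthfd2, the mitochondrial enzyme that oxidizes methylene-tetrahydrofolate, differed by 0.83 (SE 0.59), with 0.06 between the groups on date 1 and 1.20 and 1.22 on dates 2 and 3. The others lay between -0.18 for the cationic amino acid transporter Slc7a1, which was detected on 3 of 6 arrays, and 0.61 for the alanyl-tRNA synthetase Aars.

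In the chaperones, 6 of 11 differences were positive, with a median of 0.03. Sdf2l1, which works with the ER chaperone BiP to keep proteins soluble, had 7.40, 8.20 and 7.96 in 4T1-MMP3lo, against 6.91, 6.26 and 6.75 in 4T1-SC. The groups did not overlap, and the difference of 1.21 (SE 0.27) had the lowest adjusted p of the 34 genes, 0.0874 by limma. With the label date as a block its adjusted p was 0.0908, and Chac1, Asns and Trib3 had lower ones, 0.0674, 0.0701 and 0.0896. Creld2, an ER protein with disulfide isomerase activity, differed by 0.51 (SE 0.20, adjusted p = 0.339), and its 2 probes gave 0.51 and 0.59. The classical chaperones did not stand apart between groups: Hsp90b1 (GRP94) differed by -0.12 (SE 0.31), the calcium-binding lectin Calr by -0.45 (SE 0.29), and the disulfide isomerases Pdia3, Pdia4 and Pdia6 by -0.20, -0.31 and 0.11. Hspa5, which encodes BiP, had a single dim probe with 5.36, 5.29 and 4.75 in 4T1-MMP3lo, against 4.63, 5.28 and 5.26 in 4T1-SC, detected on 4 of 6 arrays, so that this main UPR target gave little information here. Of the degradation genes, Edem1, a lectin-like factor that delivers misfolded glycoproteins for disposal, had 6.07, 5.86 and 5.76 in 4T1-MMP3lo, against 6.12, 6.12 and 6.20 in 4T1-SC, apart but by only -0.25 (SE 0.17, adjusted p = 0.638). Herpud1, a membrane protein of the degradation complex, had 10.62, 10.71 and 10.79 in 4T1-MMP3lo, against 10.27, 11.12 and 10.76 in 4T1-SC. Sel1l, the adaptor of the ubiquitin ligase Syvn1, had 7.59, 7.88 and 8.01 in 4T1-MMP3lo, against 7.63, 8.05 and 7.85 in 4T1-SC. Both overlapped between groups, with differences of -0.01 and -0.01 whose sign depended on the scaling, and Syvn1 differed by 0.23.

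The group result depended on the 4T1-SC array of date 1. Without it 8 members were called by limma: Chac1 (1.72), Mthfd2 (1.56), Sdf2l1 (1.35), Asns (1.31), Trib3 (1.11), Atf4 (0.92) and Phgdh (0.82) higher in 4T1-MMP3lo, and Ern1 (-0.89) lower, while the calls over all genes were 1000 of 9348 (10.7%), against 102 with all 6 arrays. Leaving out any other single array, or fitting the label date as a block, gave 0 members. With the block, 194 of all genes were called.

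**Figure D2:**
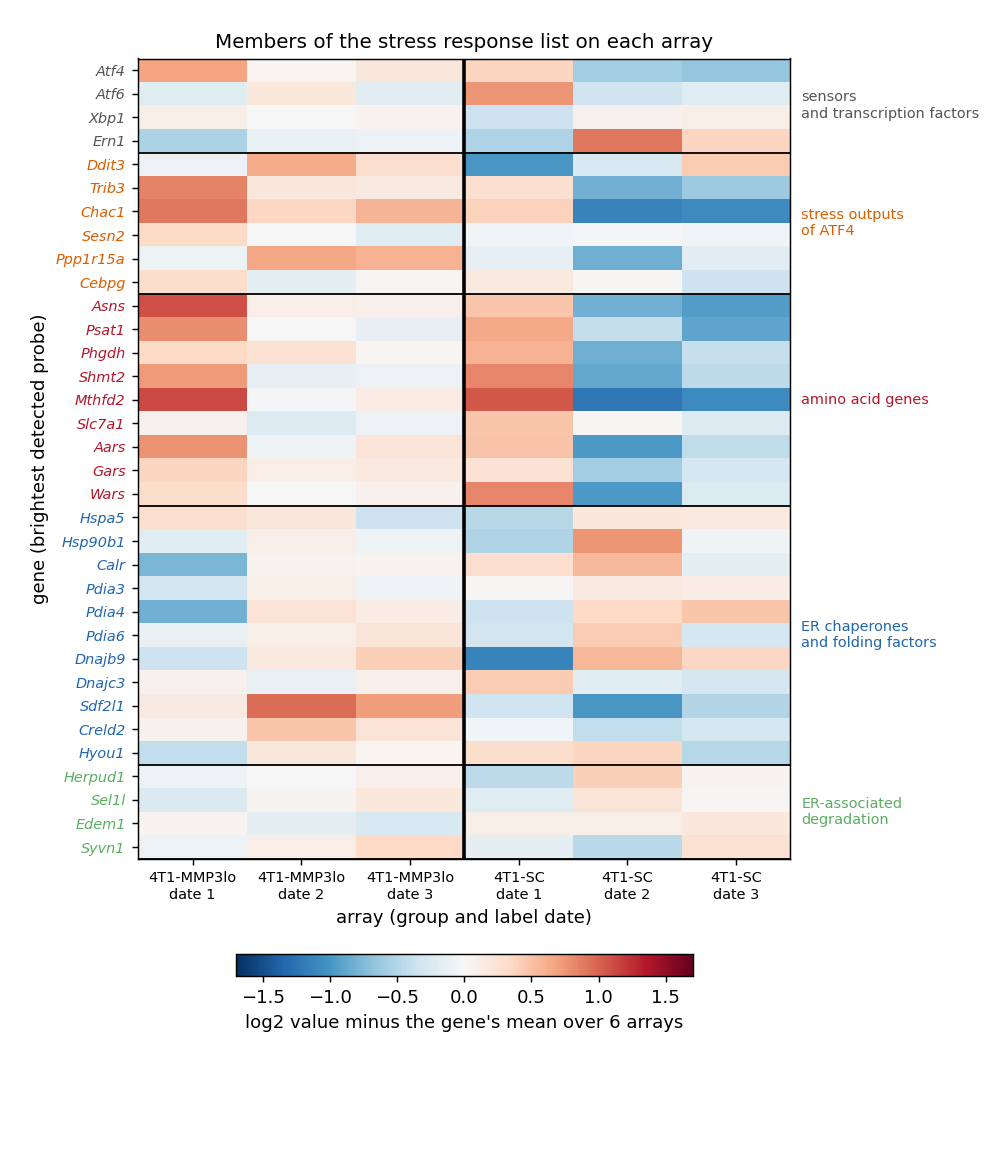
Deviation of each gene's log2 value from its mean over 6 arrays (color, red above and blue below) for the 34 measured genes (rows, grouped by role) on each array (columns, 4T1-MMP3lo left of 4T1-SC, dates 1 to 3 within a group). The amino acid genes are red on both date 1 columns and paler red or blue on the others. All but Slc7a1 are most deeply blue in 4T1-SC on date 2 or 3.

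Of the 9 measured amino acid genes 4 fell on the later label dates against the first, and of the 11 chaperones 1 rose. The dates were pooled as the later 2 against the first because earlier results of these data had set date 1 apart, so that this comparison was not chosen independently of the values. With group as a term in limma, 5 members fell on the later dates at an adjusted p under 0.05, Asns, Mthfd2, Shmt2, Psat1 and Trib3, and 1 rose, Pdia4. This fit counts the 2 arrays that share a date as separate samples. It sets 1 date against 2, so that its p-values do not measure the spread between dates. Over all genes 1.09% fell and 2.11% rose. All 9 measured amino acid genes lay lower on all 4 later arrays than on both arrays of date 1, an order that 18.7% of all genes showed, and 6 of the 34 members lay higher on all 4, as 14.9% of all genes did. The 9 genes share their arrays and are not independent of each other. The heat map by array shows the block of amino acid genes in this order. Of the 11 chaperones 3 lay higher on all 4 later arrays.

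The 4 amino acid genes that fell are all enzymes of serine, one-carbon and asparagine synthesis. Asns averaged 10.58 ± 0.57 on the later dates and 11.76 ± 0.44 on the first (SD, n = 4 and 2 arrays), a change of -1.18 (SE 0.17, adjusted p = 0.0202 by limma), which is 2.26-fold lower. Its 3 probes gave -1.18 to -1.08. Mthfd2 had 11.86, 10.72 and 10.88 on dates 1, 2 and 3 in 4T1-MMP3lo, against 11.80, 9.52 and 9.66 in 4T1-SC. It showed the largest change of the list, -1.64 (SE 0.26, adjusted p = 0.0284), or 3.11-fold lower, and a second probe gave -1.63. Shmt2, which converts serine to glycine in mitochondria, had 8.98, 8.13 and 8.16 in 4T1-MMP3lo, against 9.10, 7.40 and 7.81 in 4T1-SC, a change of -1.16 (SE 0.21, adjusted p = 0.0398). Psat1, the phosphoserine aminotransferase, had 12.21, 11.42 and 11.27 in 4T1-MMP3lo, against 12.06, 11.01 and 10.52 in 4T1-SC, a change of -1.08 (SE 0.20, adjusted p = 0.0422). In all 4 genes both arrays of date 1 lay above all 4 later ones.

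The remaining amino acid genes were lower without passing the threshold. Phgdh, which starts serine synthesis, had -0.70 (SE 0.26, adjusted p = 0.148 by limma). The tRNA synthetases Aars, Gars and Wars had -0.94, -0.46 and -0.85, with adjusted p-values of 0.062, 0.174 and 0.141, and the dim Slc7a1 had -0.40.

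**Figure D3:**
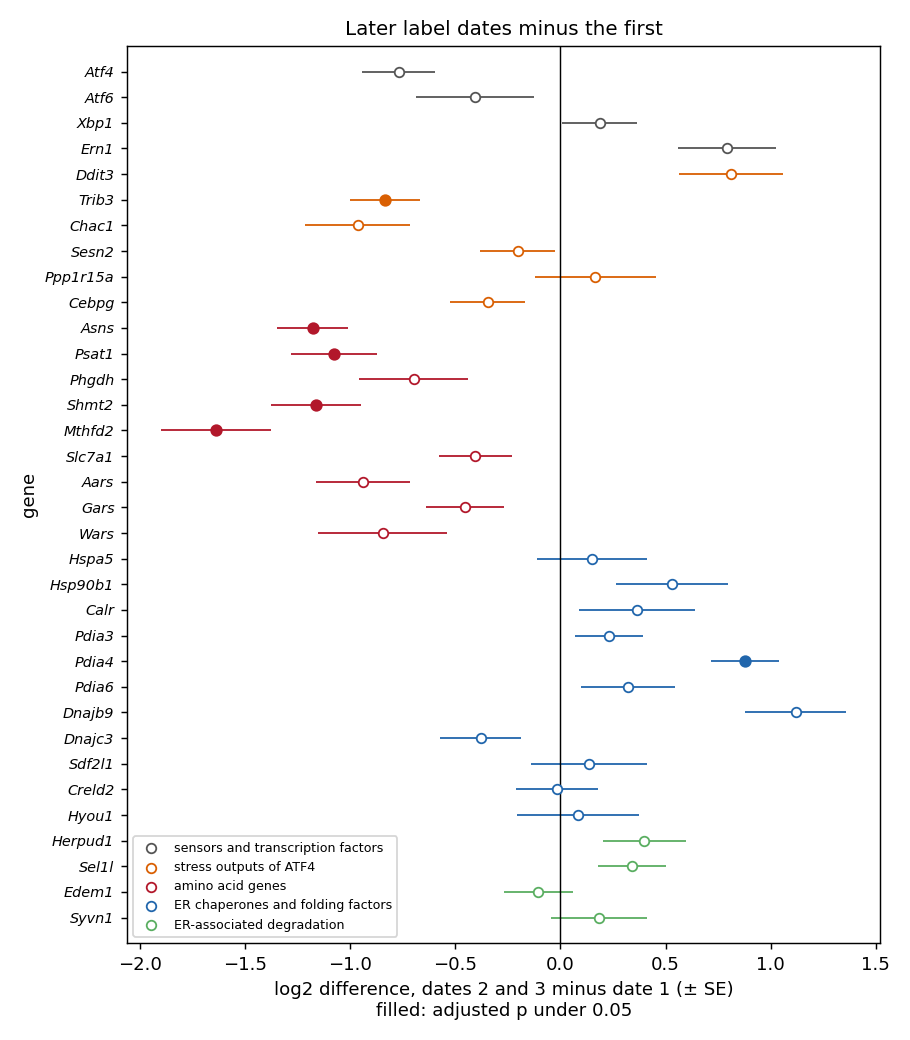
Log2 difference of label dates 2 and 3 minus date 1, with group as a term (x axis), for the 34 measured genes (y axis), colored by role, with bars of ± 1 SE from limma; filled points had an adjusted p under 0.05. The 9 amino acid genes lie left of 0, between -1.64 and -0.40, and 9 of the 11 chaperones lie right of it.

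Of the 6 ATF4 outputs, Trib3 passed the threshold along the dates and the other 5 did not. Trib3 fell, with -0.84 (SE 0.17, adjusted p = 0.0455 by limma), and both first-date arrays, at 9.59 in 4T1-MMP3lo and 9.01 in 4T1-SC, lay above the 4 later ones. Its 3 probes gave -0.84 to -0.57. Chac1 had -0.96 (SE 0.25, adjusted p = 0.0746), made up of -0.43 in 4T1-MMP3lo and -1.49 in 4T1-SC. Ddit3 had 0.81 (SE 0.25, adjusted p = 0.102), and Cebpg, Sesn2 and Ppp1r15a had -0.35, -0.20 and 0.17. Atf4 was lower on all 4 later arrays, with -0.77 (SE 0.18), which missed the threshold at an adjusted p of 0.0569, and its second probe gave -0.72. Ern1 was higher on all 4, at 0.79 (SE 0.23, adjusted p = 0.0953). Xbp1 and Atf6 overlapped between dates, at 0.19 and -0.41.

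Of the chaperones, 9 of 11 had a positive date difference, with a median of 0.23, against -0.94 for the amino acid genes. Pdia4, a disulfide isomerase of the ER, had 8.71, 9.77 and 9.65 on dates 1, 2 and 3 in 4T1-MMP3lo, against 9.18, 9.87 and 10.00 in 4T1-SC, with all 4 later arrays above both first ones. It rose by 0.88 (SE 0.16, adjusted p = 0.0409 by limma), or 1.84-fold. Dnajb9 (ERdj4), a co-chaperone of BiP and a known XBP1 target, had 7.69, 8.21 and 8.45 in 4T1-MMP3lo, against 6.90, 8.60 and 8.39 in 4T1-SC. It was likewise higher on all 4 later arrays, at 1.12 (SE 0.24), with an adjusted p of 0.0511 just outside the threshold, while Psat1 and Trib3 were just inside it. Its second probe gave 0.83. Hsp90b1, Calr, Pdia3 and Pdia6 had 0.53, 0.36, 0.23 and 0.32, with adjusted p-values of 0.248 to 0.436. Of these, Calr changed by 0.83 in 4T1-MMP3lo and by -0.10 in 4T1-SC. In 5 of the 11 chaperones both later arrays lay above the first in each group. Sdf2l1, Creld2, Hyou1 and Hspa5 were near 0, between -0.02 and 0.15, where the groups moved in opposite directions. The steps in 4T1-MMP3lo and 4T1-SC were 0.68 and -0.41 for Sdf2l1, and 0.28 and -0.31 for Creld2. They were 0.53 and -0.36 for Hyou1, and -0.34 and 0.64 for the dim Hspa5. Dnajc3, the inhibitor of PERK also called p58IPK, had -0.38 (adjusted p = 0.252). In degradation, Herpud1 and Sel1l were higher on all 4 later arrays, at 0.40 and 0.34 (adjusted p = 0.242 and 0.226), while Syvn1 and Edem1 had 0.18 and -0.11.

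**Figure D4:**
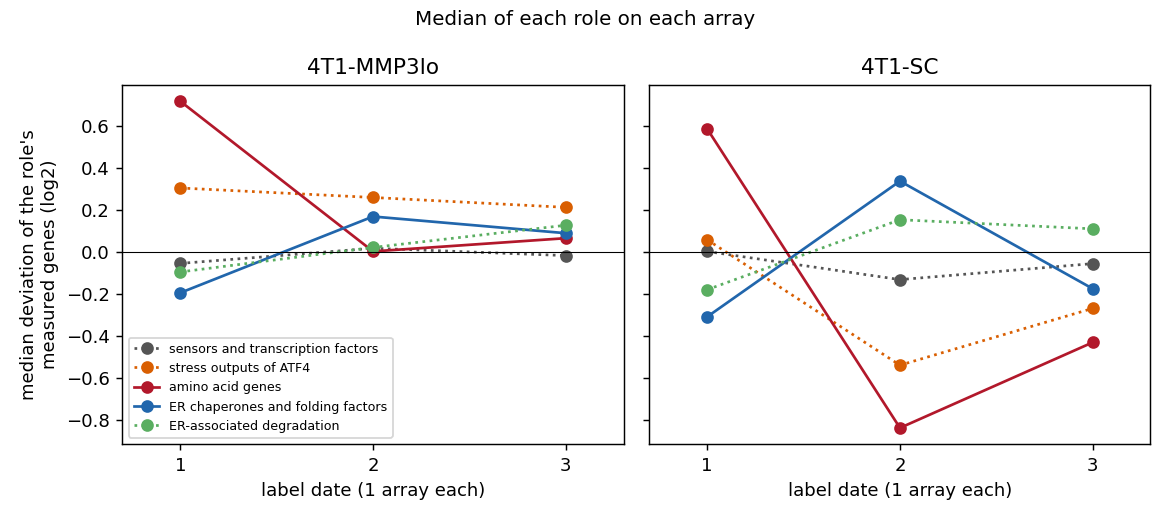
Median deviation of each role's measured genes from their 6-array means (log2, y axis) on each label date (x axis), for 4T1-MMP3lo (left) and 4T1-SC (right), 1 array per point. Amino acid genes (red) lie highest on date 1 in both groups, at 0.72 in 4T1-MMP3lo and 0.59 in 4T1-SC, where chaperones (blue) lie lowest.

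Summed up per array as the median deviation of a role's genes from their 6-array means, the amino acid genes stood at 0.72, 0.00 and 0.07 on dates 1, 2 and 3 in 4T1-MMP3lo, against 0.59, -0.84 and -0.43 in 4T1-SC. The chaperones stood at -0.19, 0.17 and 0.09 in 4T1-MMP3lo, against -0.31, 0.34 and -0.17 in 4T1-SC. Chaperones minus amino acid genes was thus -0.91, 0.17 and 0.02 in 4T1-MMP3lo, against -0.89, 1.17 and 0.26 in 4T1-SC, below 0 on both arrays of date 1 and above 0 on all 4 later ones. The later dates exceeded the first by 1.31 in this measure, 1.01 in 4T1-MMP3lo and 1.61 in 4T1-SC, and leaving out any 1 array kept it between 1.07 and 1.499. Between groups the same measure differed by -0.42, and this turned to 0.10 without the 4T1-SC array of date 2 and to -0.98 without that of date 1. These differences hold no date term, so that without an array the dates are unequal between the groups. These medians were given no test, since the genes were listed with earlier results in view.

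The date calls were less stable than the direction. With the 3 dates as separate levels of a replicate block, each estimate stayed the same but 0 members were called, with adjusted p-values of 0.0607 for Asns, 0.0669 for Mthfd2, 0.0788 for Psat1, 0.0837 for Shmt2, 0.0962 for Pdia4 and 0.0995 for Trib3. Leaving out an array of date 1 leaves that date in 1 group only, so that the change is then that group's own. Without the 4T1-MMP3lo array of date 1 it was the step within 4T1-SC, 1 array against 2. This step was 1.60 for Dnajb9, -1.49 for Chac1, -1.43 for Wars, 1.16 for Ern1 and -1.18 for Aars. It was -1.20 for Phgdh, -1.02 for Atf6 and -0.99 for Atf4. Without the 4T1-SC array of date 2 only Asns was called (-1.18, adjusted p = 0.0488), and without the 4T1-SC array of date 1 or 3, or the 4T1-MMP3lo array of date 2 or 3, no member was. Mmp3 moved with the same dates, by 2.11 (SE 0.27, adjusted p = 0.0159), higher on all 4 later arrays and at an adjusted p of 0.0485 with the block, and its part in these results was not tested.

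The step between dates was steeper in 4T1-SC for all 9 amino acid genes: the later dates minus the first gave -1.06 in 4T1-MMP3lo and -2.21 in 4T1-SC for Mthfd2, -0.26 in 4T1-MMP3lo and -1.43 in 4T1-SC for Wars, and -0.9995 in 4T1-MMP3lo and -1.36 in 4T1-SC for Asns. The 9 share the same 2 arrays of date 1, and their median difference of steps, 4T1-MMP3lo minus 4T1-SC, was 0.49. Tested as an interaction with 2 residual degrees of freedom, no member passed. The lowest adjusted p was 0.153 for Mthfd2, 9 of the 34 had an unadjusted p under 0.05, where 16.3% of all genes did, and 0.877% of all genes were called. Without the 4T1-SC array of date 3, 10 members were called (Ppp1r15a, Wars, Sdf2l1, Mthfd2, Phgdh, Atf6, Chac1, Ern1, Hsp90b1 and Dnajb9), while the calls over all genes were 1257 of 9348 (13.4%), and without that of date 2, 1 was (Calr), with 314 over all genes (3.36%).

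**Figure D5:**
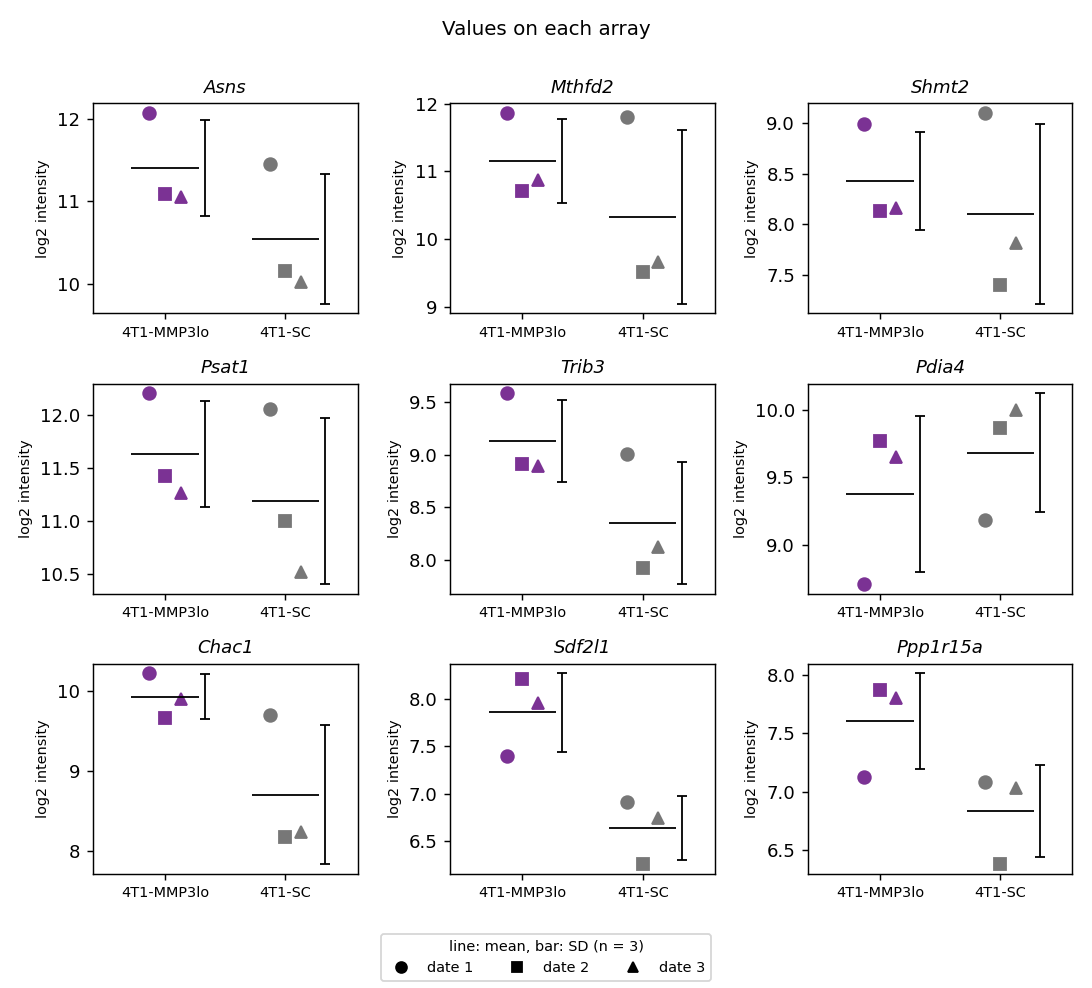
Log2 intensity of 9 genes (panels) on each array, for 4T1-MMP3lo (purple) and 4T1-SC (gray), with the label date as the symbol, the mean as a line and the SD as a bar (n = 3). In the first 5 panels the date 1 circles lie highest within each group, in Pdia4 they lie lowest, and in Sdf2l1 and Ppp1r15a the groups do not overlap.

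The wider pathways were followed through 2 further lists, 45 genes of ER translocation, folding and degradation and 35 genes of ATF4 and the integrated stress response, of which 38 and 30 were measured. Between groups none of these 68 passed an adjusted p of 0.05 by limma, and 9 had an unadjusted p under 0.05, as 12.2% of all genes did. All 3 arrays of 4T1-MMP3lo lay above all 3 of 4T1-SC for 9 of them (9.62% of all genes) and below for 1, Ssr1. The largest differences were Fkbp11, a prolyl isomerase of the secretory pathway, at 1.77 (SE 0.47, adjusted p = 0.15), and, in the ATF4 list, the glycine transporter Slc6a9. It had 8.52, 7.54 and 7.72 in 4T1-MMP3lo, against 7.47, 6.21 and 6.94 in 4T1-SC, a difference of 1.06 (SE 0.37, adjusted p = 0.29). With the label date as a block it was the 1 gene of these lists called, at an adjusted p of 0.0452, where 2.08% of all genes were called. Without the 4T1-SC array of date 1 both Fkbp11 (2.41, adjusted p = 0.000159) and Slc6a9 (1.35, adjusted p = 0.0323) were called, as were 10.7% of all genes. In that fit, too, group and date were mixed. Fkbp11 and Slc6a9 were singled out after their values were seen.

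Along the dates, 3 genes of the ATF4 list fell and none rose at an adjusted p under 0.05, where 1.09% of all genes fell. The glutamine transporter Slc1a5 had 7.10, 5.88 and 6.16 on dates 1, 2 and 3 in 4T1-MMP3lo, against 7.58, 5.19 and 5.43 in 4T1-SC, a change of -1.68 (SE 0.27, adjusted p = 0.0303 by limma). Gpt2, the mitochondrial alanine aminotransferase, changed by -1.14 (SE 0.16, adjusted p = 0.0195) and the tyrosyl-tRNA synthetase Yars1 by -0.77 (SE 0.15, adjusted p = 0.0449). Yars1 was near the detection limit, detected on all 3 arrays of 4T1-MMP3lo and on 1 of 3 of 4T1-SC. In all, 15 of the 30 lay lower on all 4 later arrays (18.7% of all genes) and 3 lay higher. Among those 3 was the cystine transporter Slc7a11, at 1.27 (adjusted p = 0.0753), named here after its value was seen. Of the 38 ER genes 1 rose, where 2.11% of all genes did: Ero1b, the oxidase that recharges disulfide isomerases, which had 5.95, 6.96 and 6.87 in 4T1-MMP3lo, against 5.77, 6.71 and 6.42 in 4T1-SC, a change of 0.89 (SE 0.17, adjusted p = 0.0422). None fell. As with the members, none of these 4 calls held with the replicate block, where the adjusted p was 0.0668 for Slc1a5, 0.0566 for Gpt2, 0.100 for Yars1 and 0.0905 for Ero1b. Leaving out an array of dates 2 or 3 ended all 4 calls except that of Gpt2 without the 4T1-SC array of date 2. Leaving out an array of date 1 gives the change within the other group alone. This was -1.08 in 4T1-MMP3lo and -2.27 in 4T1-SC for Slc1a5, and -1.05 and -1.23 for Gpt2. Without background correction Slc1a5 had -0.84, Yars1 -0.24 and Ero1b 0.42. The ER list as a whole had a median change of 0.08 and the ATF4 list one of -0.46, against -0.02 over all genes.

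The 8 members without a value limit the picture of each arm. Slc7a5, the large neutral amino acid transporter, and the co-chaperone Dnajb11 had no probe under their names in the annotation used. Probes of the sensor Eif2ak3, the serine phosphatase Psph, the lectin chaperone Canx and the secreted ER protein Manf were detected on no array, those of the transporter heavy chain Slc3a2 on 2 and those of the retrotranslocation factor Derl1 on 1. A dim probe does not show that the RNA was absent.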

How the data were processed

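Total RNA of 6 cultures was measured on mouse bead arrays. The authors deposited probe intensities on a linear scale with detection p-values, neither background-corrected nor normalized, and a log2 table of the same arrays whose values matched quantile-normalized intensities. The scanner and summary software are not given in the sources used here. The intensities were corrected, offset by 16 and quantile-normalized with neqc of limma 3.58.1 in R 4.3.3, and 16969 of 45281 probes with a detection p under 0.05 on at least 3 arrays were kept. GEO's platform annotation, updated through RefSeq identifiers, gave 1 symbol to 34885 probes, several to 18 and none to 10378. Genes were tested with lmFit and eBayes, by group over 6 arrays, by later against first label dates with group as a term, and by their interaction. The members, roles and further lists were chosen with earlier results of these data known. Values in every sample were given for members called in any comparison and for the 3 of each role with the largest change in either. In the further lists up to 3 genes called in each direction of either comparison were named, or the 2 with the largest change. The pairing of arrays comes from the labels' dates. Deviations from the group means correlated across genes at r = 0.442, 0.212 and 0.283 within dates 1, 2 and 3, and at 0.309 for 4T1-MMP3lo of date 2 with 4T1-SC of date 3 and 0.235 for 4T1-MMP3lo of date 3 with 4T1-SC of date 2, so that these values do not tell dates 2 and 3 apart. The number of arrays limits the precision. The fits were tested on simulated data. The simulated noise was independent between arrays, so that the group fit was not tested with shifts shared by the arrays of a date. The alternatives covered the background correction, the authors' log2 table, the offset, the scaling, the probes standing for a gene, the filter on dim probes, a replicate block, the methods' t-test and each array left out. Each later date alone and the role medians with an array left out were added after seeing the data.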

Additional observations from a re-analysis of the deposited data

Results flagged for a closer look

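Ddit4, a hypoxia- and stress-induced inhibitor of mTORC1 signaling that is a known ATF4 target and a gene of the wider ATF4 list, was picked out because its step between label dates differed between the groups in the interaction test. Its log2 values on dates 1, 2 and 3 were 10.29, 10.37 and 10.27 in 4T1-MMP3lo, against 9.39, 11.46 and 11.89 in 4T1-SC. The later dates minus the first gave 0.03 in 4T1-MMP3lo and 2.29 in 4T1-SC, a difference of steps of -2.26 (SE 0.34, adjusted p = 0.0475 by limma with 2 residual degrees of freedom). The 3 arrays of 4T1-MMP3lo were alike and the 4T1-SC array of date 1 lay far below the other 2 of its group, so that the value rests on 1 array of that group. Without background correction it was -2.13 (adjusted p = 0.0677), and leaving out a later array gave adjusted p-values of 0.0145 to 0.135. No listed member passed this test.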

How the results depend on the processing

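Among the 16 members that the rule names (Ppp1r15a and Hspa5, given by array as well, were added outside it), the difference between groups kept its direction and its side of the threshold in 218 comparisons with an alternative, gained a call in 7 and turned in direction in 14. The date change kept both in 185, lost the call in 55, gained it in 11 and turned in 4. Members called between groups were 0, and 0 to 8 with 1 array left out. Members lower on the later dates were 5, against 1 with no filter on dim probes, 0 with the replicate block, 0 with date 2 or date 3 alone, and 0 to 11 with 1 array left out. Members higher were 1, against 2 with an offset of 50, with the mean of all probes or with probes detected on all 6 arrays, 0 with no filter, with the replicate block or with either date alone, and 0 to 2 with 1 array left out. Members called in the interaction were 0, and 0 to 10 with 1 array left out. Over all genes, the calls between groups were 102, against 12 without background correction, 12 in the authors' table, 38 with an offset of 50, 30 with no filter, 50 with probes detected on all 6 arrays, 194 with the replicate block, 0 by the methods' t-test (1054 at an unadjusted p under 0.05), and 0 to 1000 with 1 array left out. Calls between dates were 299, against 92 with no filter, 45 with the replicate block, 6 with date 2 and 18 with date 3 alone, and 17 to 1405 with 1 array left out. Interaction calls were 82, against 24 without background correction, 24 in the authors' table, 224 with a shift to equal medians, and 22 to 1257 with 1 array left out. The date change of chaperones minus amino acid genes was 1.04 to 1.35 under the other processings, and its difference between groups was -0.98 to 0.10 with 1 array left out. Small differences turned sign: between groups Herpud1 was 0.0346 with a shift to equal medians and 0.0550 with the mean of all probes, and Sel1l was 0.0381 and 0.0842 under the same settings, while the date change of Edem1 was 0.0486 with a shift to equal medians. With 1 array left out the group difference ranged over -0.552 to 0.854 for Mmp3, -0.343 to 0.200 for Atf6, -0.0298 to 0.819 for Shmt2, -0.559 to 0.0257 for Pdia4, -0.379 to 0.473 for Dnajb9, -0.228 to 0.195 for Herpud1 and -0.121 to 0.106 for Sel1l, and the date change over -1.02 to 0.204 for Atf6, -0.411 to 0.680 for Sdf2l1 and -0.254 to 0.0416 for Edem1. The causes were not tested. Fits that leave out an array or a date, or add the replicate block, have fewer residual degrees of freedom. Group fits with 1 array left out hold no date term, so that the dates are then unequal between the groups. Date fits without an array of date 1 give the change within the other group alone. No interaction was fitted without an array of date 1, where the term cannot be estimated, and probes near the detection limit, such as those of Hspa5, Slc7a1 and Atf6, limit what their genes can show.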
